A study of Drosophila melanogaster with 9 samples.

Results

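The transcriptome of the female heart on normal diet (ND) was described from 3 RNA sequencing libraries, ND A, ND B and ND C, of the 9 libraries in the series. They were chosen as the libraries whose labels give normal diet, and no measured value entered the choice. The flies were adult mated females of the Drosophila melanogaster strain w1118, kept on ND for 10 days on agar, dry yeast and cornmeal. Hearts were dissected and pooled, 15 per library by the labels, whereas the methods of the study give another number, and the pools carry no label that ties a letter to a day of dissection. The other libraries, used here only for comparison, were 3 of w1118 females on high sugar diet (HSD) for 10 days, which is ND with 30% sucrose, and 3 of w1118 females kept 7 days on ND and then 3 days on high fat diet (HFD), which is ND with 30% coconut oil. All 9 libraries thus share strain, sex and dissection, and no library of another tissue or of males was analysed here.

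The adult fly heart is a contractile tube along the dorsal midline. Its wall is made of striated cardiomyocytes, and along its sides lie the pericardial cells, nephrocytes that take up proteins and lipid particles from the hemolymph. Abdominal fat body, which stores fat and glycogen and secretes yolk and lipid carrier proteins, oenocytes, which make cuticular hydrocarbons, the alary and ventral muscles and hemocytes lie close to the tube in the opened abdomen. A bulk library holds the RNA of all cells that remain on the dissected tube, so that fewer cells of a type and less RNA per cell cannot be told apart.

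Levels are given as RPKM, reads per kilobase of exon and per 1000000 reads counted on genes, so that genes of different length can be set side by side. Values of a gene are listed in the order ND A, ND B, ND C. Between 75653834 and 79296601 reads were counted on genes per ND library, and 1 read on a gene with 1 kb of exon corresponds to 0.0126 to 0.0132 RPKM. The error given is the spread between the libraries. Reads were sequenced in pairs, and independent fragments may be fewer than reads. Gene positions were taken from the BDGP6 annotation, a later build than the one used for alignment.

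Of 16660 genes in the table, 11078 had a value above 0 in all 3 ND libraries and 7472 (44.9%) reached 1 RPKM in all 3, the level used here to call a gene expressed. A level of 10 RPKM was reached by 3790 genes, 100 RPKM by 622 and 1000 RPKM by 86. Expressed genes were 7325 of 13840 protein-coding genes, 114 of 2307 ncRNA genes and 16 of 258 snoRNA genes. Protein-coding genes held 99.6% ± 0.0572 of the reads on annotated genes (SD, n = 3), and none of the 98 rRNA genes reached 1 RPKM. The 86 genes outside the annotation, 6 of them expressed, have no exon length. Shares of reads here and by chromosome leave them out. Of the 7472 expressed genes, 7272 (97.3%) were also at 1 RPKM or more in all 6 libraries of the other diets.

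The level was concentrated in few genes. The 100 highest genes held 49.4% ± 0.734 of summed RPKM (SD, n = 3), with 50.2% in ND A, 49.0% in ND B and 48.9% in ND C. The 4 highest genes alone held 19.9% ± 0.835. Counted as reads, which do not correct for gene length, the same 100 genes held 38.6%. Among protein-coding genes the highest were short, with a median exon length of 966 bases for the 100 highest, 1656.5 for those from there to rank 1000 and 2320 for expressed genes below rank 4000. Ribosomal protein genes were 57 of these 100 highest.

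The chromosomes contributed unequally. The X chromosome held 1228 of the 7472 expressed genes and 31.6% ± 0.701 of the reads (SD, n = 3). The genes Cyp4g1, Yp1, Yp2 and Yp3, all on the X, held 20.4% ± 0.727 of the reads. On chromosome 4, 61 of 102 genes were expressed, and on the Y chromosome 1 of 41, a pseudogene.

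The highest gene was Cyp4g1 (FBgn0010019, chromosome X, 467057 to 469335), which encodes the cytochrome P450 that completes hydrocarbon synthesis in oenocytes. It measured 31265, 44927 and 37089 RPKM, 5510751 to 8119061 reads per library. The yolk protein genes followed. Yp2 measured 32754, 25582 and 27809.8 RPKM, Yp3 30125, 19045 and 22203 RPKM and Yp1 19985, 14795 and 16988 RPKM. Yolk proteins are secreted by the female fat body and ovarian follicle cells and taken up by oocytes. Of the exon length of Yp1, 54.3% is overlapped by exons on the opposite strand, and whether counting used strand is not given in the sources used here. Yp1 and Yp2 lie next to each other (chromosome X, 10053811 to 10055498 and 10050951 to 10052636), and Yp3 lies further along the same chromosome (13759546 to 13761547).

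**Figure D1:**
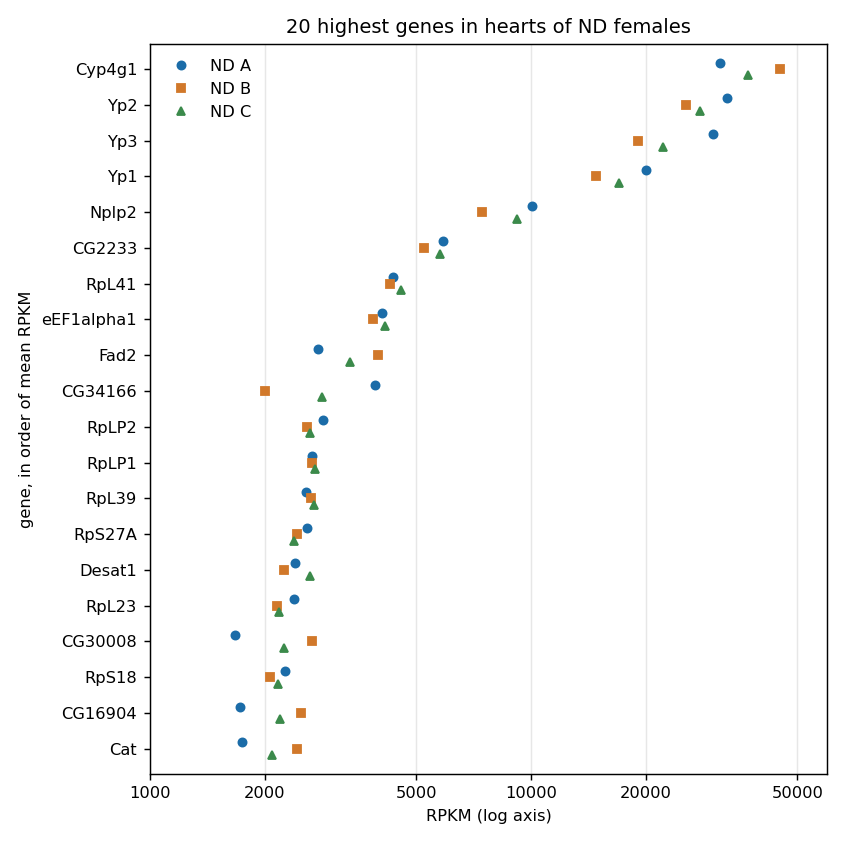
RPKM (log axis) of the 20 genes with the highest mean on ND, with 1 symbol per ND library. Cyp4g1 ranged from 31265 to 44927 RPKM, and the mean of the lowest gene drawn, Cat, was 2089 RPKM.

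Below these lay Nplp2, a neuropeptide-like precursor gene that is also listed as a hemocyte marker, at 10085, 7430.4 and 9199 RPKM. CG2233 followed at 5869, 5256 and 5769 RPKM, and CG34166 measured 3899.7, 2001 and 2836 RPKM. Neither carries a name beyond its CG number. The 25 highest genes further held 10 ribosomal protein genes, among them RpL41 at 4357, 4255 and 4554 RPKM, and the translation elongation factor gene eEF1alpha1 at 4058, 3859 and 4131 RPKM. Desat1, a fatty acid desaturase, measured 2400.1, 2256 and 2634 RPKM. Fad2, the female desaturase that makes hydrocarbon dienes and was formerly called desatF, measured 2760.3, 3964 and 3360.3 RPKM, and the elongase gene eloF 1409.6, 2259 and 1889 RPKM. Also among the 25 were RpLP2, RpLP1, RpL39, RpS27A, RpL23, CG30008, RpS18, CG16904, the catalase gene Cat, RpL27A, the acyl-CoA binding protein gene Acbp2 and RpL23A, with means between 1816 and 2686 RPKM.

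The label of the tissue was checked against genes that set cardiac identity. Of 18 heart regulators, 13 were expressed, with a median of 4.70 RPKM. Hand, a basic helix-loop-helix factor present in cardiomyocytes and pericardial cells (FBgn0032209, chromosome 2L, 10292679 to 10295385), was the highest at 209.9, 271 and 245 RPKM. The zinc finger gene zfh1, active in pericardial cells, measured 23.6, 28.0 and 24.5 RPKM, and svp, the nuclear receptor of the ostial cells through which hemolymph enters, 16.5, 18.5 and 18.8 RPKM. Hand lay far above the rest of the list, zfh1 lay above all but Hand in every library, and svp overlapped with the next gene. The RNA-binding protein gene how measured 15.0, 16.1 and 16.8 RPKM, the T-box gene H15 13.6, 14.9 and 12.1 RPKM and the LIM homeobox gene tup 11.8, 11.6 and 11.1 RPKM.

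The NK homeobox gene tin, without which no heart forms in the embryo, stood at 3.15, 3.10 and 2.75 RPKM. It rested on 346 to 409 reads per library, so that its low level was well above counting error. The GATA factor gene pnr measured 5.70, 6.95 and 6.75 RPKM, Mef2, the muscle differentiation factor, 6.21, 6.36 and 6.64 RPKM, and the T-box gene mid 1.90, 2.29 and 2.32 RPKM. Of the Hox genes, which pattern the tube from front to back, Ubx measured 6.81, 6.98 and 8.63 RPKM and abd-A 3.12, 2.67 and 3.03 RPKM. Abd-B measured 0.134, 0.129 and 0.111 RPKM and was thus not expressed by the criterion used. Of the Doc T-box genes Doc3 alone passed 1 RPKM, at 2.06, 2.29 and 1.47 RPKM. The ladybird genes were low, with lbl at 0.627, 0.740 and 0.660 RPKM and lbe at 0, 1 and 0 reads. A count of 3 reads, the limit that 0 reads allow, corresponds to 0.0174 RPKM for lbe.

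Contractile genes were among the well expressed genes, and each family was carried by few members. Of 6 thick filament genes, 5 were expressed with a list median of 198 RPKM. Myosin light chain gene Mlc2 (FBgn0002773, chromosome 3R, 30171438 to 30174551) measured 728, 761 and 614 RPKM, the muscle myosin heavy chain gene Mhc 261, 259 and 213 RPKM and Mlc1 233, 259 and 206 RPKM. Myofilin (Mf) measured 163, 169 and 159 RPKM and paramyosin (Prm) 67.0, 62.8 and 57.0 RPKM. All 5 were lowest in ND C. Flightin (fln), which is restricted to indirect flight muscle, was at 0.0199, 0 and 0 RPKM, and the floor of 3 reads for it is 0.0305 RPKM.

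Of 14 thin filament genes, 10 were expressed. Act57B, the actin gene of larval and cardiac muscle (FBgn0000044, chromosome 2R, 20944021 to 20946431), measured 633, 617 and 478 RPKM, against 71.9, 72.2 and 63.9 RPKM for Act87E. The cytoplasmic actin gene Act5C measured 340.5, 338 and 336 RPKM and Act42A 99.4, 115 and 109.7 RPKM. Among these paralogs Act57B thus held 52.5% ± 3.74 of the summed actin RPKM and Act5C 31.1% ± 2.48 (SD, n = 3). Act88F, the actin of indirect flight muscle, measured 0.341, 0.182 and 0.191 RPKM, and Act79B, the actin of leg and jump muscle, 0.839, 0.787 and 3.05 RPKM. Actin RNA thus came mainly from Act57B and the cytoplasmic gene Act5C. The troponin T gene up measured 271, 263 and 219.5 RPKM and the troponin I gene wupA 199, 214 and 177 RPKM.

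Troponin C, the calcium sensor of the thin filament, came from TpnC47D at 102, 101 and 79.1 RPKM, TpnC73F at 79.8, 60.9 and 63.6 RPKM and TpnC25D at 19.5, 22.1 and 16.8 RPKM. TpnC4, the isoform of stretch activation in flight muscle, was at 0.152, 0.0891 and 0.125 RPKM, and TpnC41C at 0.124, 0.235 and 0.759 RPKM. TpnC47D held 51.6% ± 2.91 of the family level and TpnC4 0.0672% ± 0.0164. For tropomyosin, Tm2 measured 172, 160.3 and 142 RPKM and Tm1 41.4, 42.4 and 37.8 RPKM. Of 4 genes listed for flight muscle only salm, a zinc finger gene with sites of expression beyond that muscle, exceeded 1 RPKM, at 6.45, 12.4 and 8.28 RPKM.

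Tubulins form the microtubules of every cell. Of the alpha tubulins alphaTub84B measured 242, 244 and 237 RPKM and held 90.5% ± 0.350 of the family level (SD, n = 3), while alphaTub84D measured 23.9, 23.9 and 22.6 RPKM. The maternal form alphaTub67C measured 0.840, 1.05 and 3.33 RPKM, highest in ND C, and alphaTub85E was under 0.1 RPKM. The beta tubulins were split more evenly, with betaTub56D at 139, 116 and 116 RPKM, betaTub60D at 90.8, 108 and 95.2 RPKM and betaTub97EF at 69.7, 65.7 and 62.9 RPKM, whereas the testis form betaTub85D was at 0.0140, 0.0343 and 0.0359 RPKM.

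**Figure D2:**
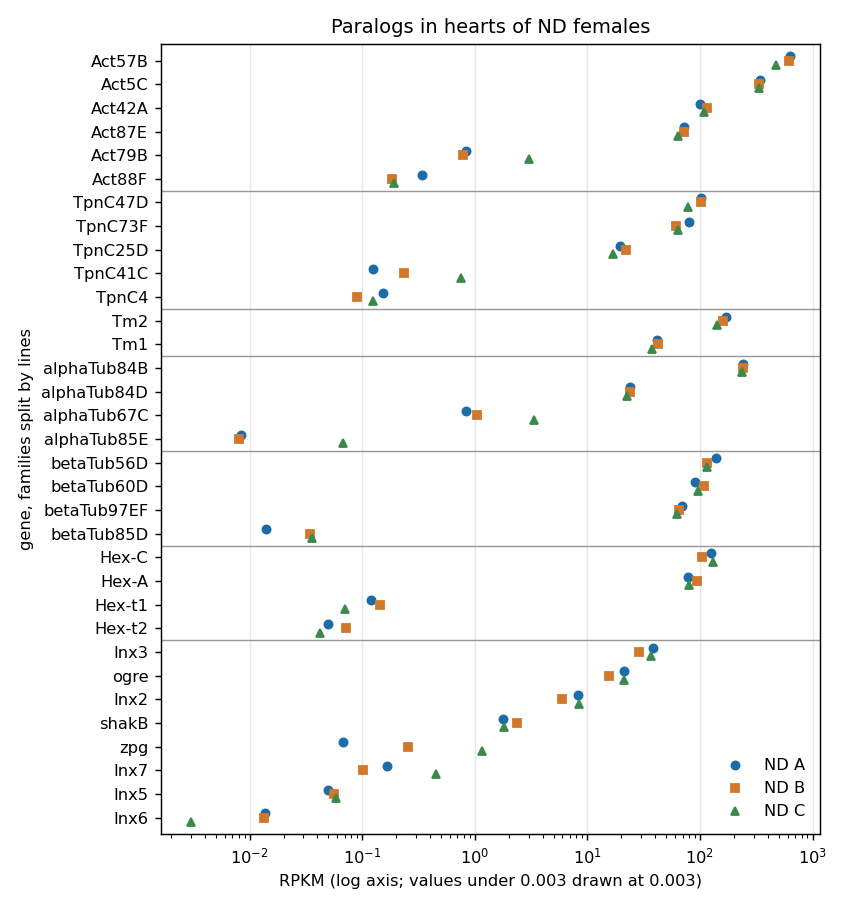
RPKM (log axis) of the members of 7 families with 1 symbol per ND library; lines split the families and values under 0.003 are drawn at 0.003. In each of the actin, troponin C, alpha tubulin, hexokinase and innexin families the lowest member lay under 1 RPKM in all 3 libraries, while the highest reached 28.9 RPKM or more in each library.

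At the Z-disc, where thin filaments of adjoining sarcomeres are anchored, 11 of 12 genes were expressed. Zasp66 measured 127, 131 and 118 RPKM, the muscle LIM protein genes Mlp84B 59.8, 63.7 and 58.4 RPKM and Mlp60A 56.7, 54.2 and 48.8 RPKM. The titin-like genes were lower per kilobase. Titin-like proteins span the sarcomere and lend it elasticity. The projectin gene bt measured 25.7, 29.4 and 26.7 RPKM, Obsc 27.3, 26.2 and 23.0 RPKM and sls 8.90, 10.3 and 9.46 RPKM. Zasp67 was near absent at 0.00398, 0 and 0.0163 RPKM.

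Calcium cycling genes were expressed in 12 of 14 cases, with a median of 12.2 RPKM. SERCA, the pump that returns calcium to the sarcoplasmic reticulum, measured 140, 146 and 132 RPKM. Calmodulin (Cam) measured 63.5, 75.7 and 71.1 RPKM and the plasma membrane pump PMCA 42.5, 53.5 and 49.1 RPKM. The ryanodine receptor gene RyR, through which calcium is released, measured 11.8, 12.4 and 10.8 RPKM, the L-type channel subunit Ca-alpha1D 5.37, 6.10 and 5.49 RPKM, the T-type subunit Ca-alpha1T 7.91, 8.86 and 8.21 RPKM and the sodium-calcium exchanger Calx 2.74, 2.71 and 2.82 RPKM. Both pumps and calmodulin thus lay above the channels and the exchanger in every library. The sarcolamban genes encode micropeptides that restrain SERCA. SclB measured 47.2, 40.5 and 35.9 RPKM while SclA was listed at 0. Exons of another gene on the same strand cover SclA wholly and 88.5% of the exon length of SclB, so that the level of SclB is uncertain as well.

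Of 15 potassium and pacemaker channel genes, 9 were expressed, all at low levels. Ih, the hyperpolarization-activated channel, measured 13.9, 16.1 and 13.8 RPKM and Ork1, a potassium leak channel that slows the heartbeat, 17.4, 11.2 and 14.6 RPKM. The next highest member was lower by several-fold. It was the ERG channel gene sei at 2.92, 2.94 and 3.40 RPKM. KCNQ, a repolarizing channel known from the aging fly heart, measured 0.848, 0.918 and 1.03 RPKM and Sh 0.434, 0.596 and 0.556 RPKM. Irk3 was under 0.1 RPKM in all 3 libraries, at 0.0247, 0.0301 and 0.0820 RPKM.

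Innexins form the gap junctions of insects. Inx3 measured 38.3, 28.9 and 36.5 RPKM, ogre 21.0, 15.4 and 21.3 RPKM and Inx2 8.33, 5.93 and 8.44 RPKM, all lowest in ND B, and together these 3 genes led the family. The neuronal shakB was lower, at 1.76, 2.38 and 1.81 RPKM. Inx5 and Inx6 were under 0.1 RPKM in all 3 libraries, and the germline gene zpg ranged over 0.0672, 0.254 and 1.16 RPKM. Inx7 was low at 0.164, 0.101 and 0.448 RPKM.

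The extracellular matrix was strongly represented, with 18 of 19 genes expressed and a median of 36.9 RPKM. SPARC, a collagen-binding glycoprotein, measured 881, 837 and 839.9 RPKM and papilin (Ppn) 711, 826 and 725 RPKM. The collagen IV chain gene Col4a1 measured 488, 535 and 474 RPKM. The gene of the other chain, vkg, measured 292, 321 and 294 RPKM. Col4a1 held 62.3% ± 0.496 of their summed level in a ratio that hardly varied between libraries. The metalloproteinase inhibitor gene Timp measured 146, 176 and 156 RPKM and the laminin chain gene LanA 77.7, 84.4 and 71.0 RPKM. The integrin alpha chain gene mew measured 45.9, 47.4 and 43.0 RPKM and the beta chain gene mys 36.7, 39.1 and 34.8 RPKM. These receptors link muscle to the laminin and collagen of the matrix. Perlecan (trol) measured 14.1, 14.6 and 13.4 RPKM, and lonely heart (loh), which organizes the pericardial matrix, 10.4, 12.1 and 10.4 RPKM. The exception was prc, pericardin, a collagen of that same matrix, at 0.166, 0.121 and 0.136 RPKM. It rested on 53 to 71 reads per library, and its exons do not overlap another gene on the same strand.

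**Figure D3:**
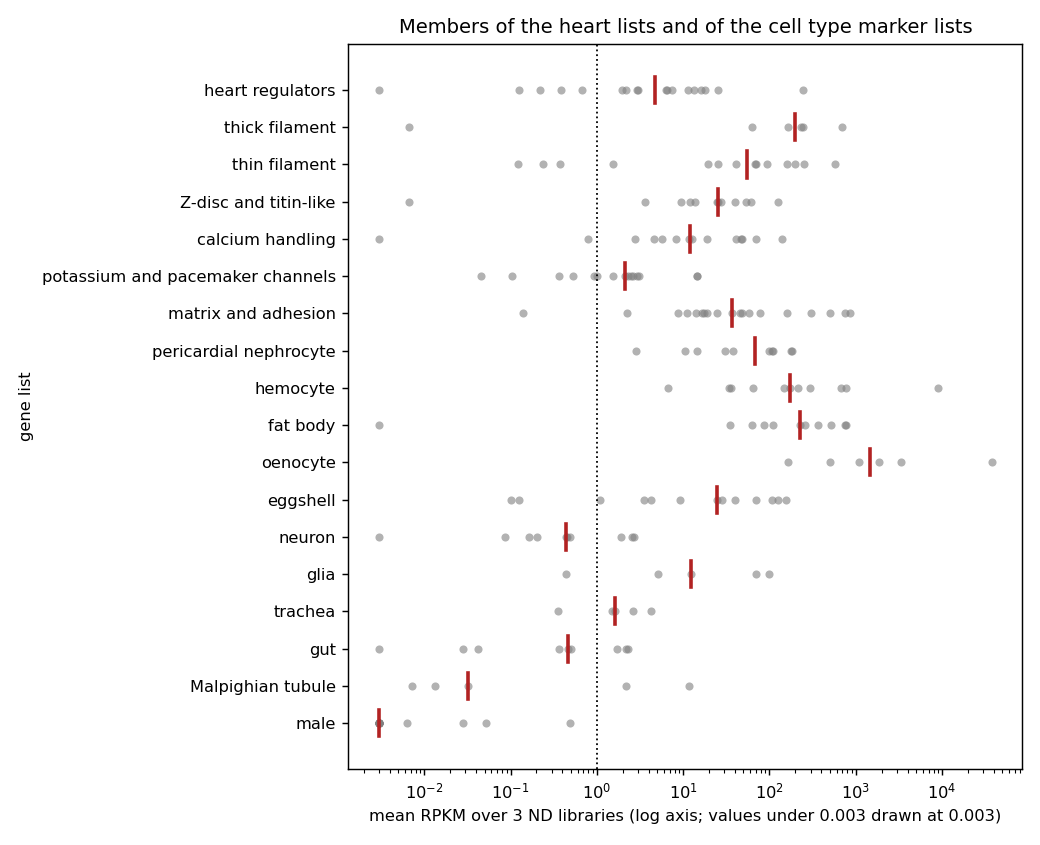
Mean RPKM over the 3 ND libraries (log axis) of each member of 18 gene lists; grey points are genes, red bars list medians, and the dotted line marks 1 RPKM. The median is 54.3 RPKM for the thin filament list and 1477 for the oenocyte list, whereas it is 0.460 for gut and 0 for male genes.

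Markers of the cells around the tube were measured in the same way. All 10 pericardial nephrocyte genes were expressed, with a median of 68.5 RPKM. The lipophorin receptor gene LpR2 measured 175, 169.8 and 202 RPKM, and Amnionless, a subunit of the protein uptake receptor, 209, 161 and 170.4 RPKM. Cubn2, which belongs to the same receptor, measured 123, 93.8 and 104 RPKM. The slit diaphragm gene sns measured 16.1, 14.3 and 13.6 RPKM and kirre, its binding partner, 3.01, 2.73 and 2.91 RPKM. The other lipophorin receptor gene LpR1 measured 89.6, 132 and 112 RPKM. Klf15, a factor required for nephrocyte differentiation, stood at 12.2, 8.95 and 10.3 RPKM. Of the 10 genes, 7 were highest in ND A.

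All 11 hemocyte genes were expressed, with a median of 175 RPKM. Beside Nplp2, the prophenoloxidase genes of crystal cells were the highest, PPO2 at 751, 727 and 810.1 RPKM and PPO1 at 659.9, 667 and 706 RPKM. The plasmatocyte gene Hml measured 286, 312 and 282 RPKM. NimC1 and eater encode receptors for the uptake of bacteria. NimC1 measured 135, 159.9 and 146 RPKM and eater 32.3, 36.1 and 34.9 RPKM. The list sum was 12408, 9872 and 11671 RPKM, of which Nplp2 made up most.

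Fat body genes were expressed in 10 of 11 cases, with a median of 226 RPKM. The fatty acid synthase gene FASN1 measured 805, 684 and 822 RPKM and apolpp, the structural protein of lipophorin, 697, 766 and 803 RPKM. Lsp2, a storage protein gene, measured 890.3, 316 and 344 RPKM and differed most between libraries, being highest in ND A. Its exons are overlapped over 84.6% of their length on the opposite strand. The lipase gene bmm measured 113, 103 and 112 RPKM and the lipid droplet gene Lsd-1 309.7, 207 and 254 RPKM. Lsd-2 measured 229, 234 and 214 RPKM. Pepck1 was listed at 0, and its exons lie wholly within those of another gene. In all, 7 of the 10 expressed members were highest in ND A.

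All 6 oenocyte genes were expressed, and the order of the libraries was the same for each, with ND B highest and ND A lowest. Beside Cyp4g1, Fad2 and eloF, the fatty acid synthase gene FASN3 measured 668, 1421 and 1218 RPKM. FASN2 measured 429.7, 555 and 517 RPKM and the reductase gene FarO 132, 190.4 and 173 RPKM. The list held 8.30% ± 1.66 of summed RPKM (SD, n = 3). The yolk protein genes ran the other way, all 3 highest in ND A and lowest in ND B, and held 12.9% ± 2.03. The share of these lists thus moved between the ND libraries by more than the share of the cytosolic ribosome, which was 18.8% ± 0.261.

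Eggshell genes set ND C apart. Their summed level was 53.4, 129 and 1524 RPKM, and all 11 members whose mean reached 1 RPKM were highest in ND C. The vitelline membrane gene Vm26Aa (FBgn0003979, chromosome 2L, 5959596 to 5960340) measured 8.68, 4.55 and 456 RPKM, corresponding to 500, 269 and 25721 reads. Vm34Ca measured 7.50, 2.67 and 363 RPKM and the chorion gene Cp15 13.0, 92.0 and 217 RPKM. All 6 germline genes were also highest in ND C but stayed low, with osk at 0.288, 0.941 and 3.58 RPKM, otu at 0.0643, 0.317 and 1.53 RPKM and nanos at 0.0440, 0.231 and 1.12 RPKM. Exons of another gene on the same strand overlap 78.5% of the exon length of osk, so that its level is uncertain. The level of vas was 0.0731, 0.202 and 0.670 RPKM. Eggshell proteins are made by ovarian follicle cells late in oogenesis. Their part in other results was not tested. An expressed gene had to reach 1 RPKM in every library kept, so leaving out any library cannot lower the number. It rose from 7472 to 7503 without ND C, 7557 without ND A and 7515 without ND B, which does not bear on eggshell RNA.

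Markers of the remaining cell types were low except for the glial list. List medians were 0.445 RPKM for neuron, 0.460 for gut, 1.64 for trachea, 0.0326 for Malpighian tubule and 0 for male genes. The glial median was 12.45 RPKM. Of 10 neuron genes 3 were expressed, Vmat at 2.75, 2.25 and 3.11 RPKM, nSyb at 2.74, 2.63 and 2.23 RPKM and elav at 1.63, 2.07 and 1.98 RPKM, while ChAT and VGlut were under 0.1 RPKM. Of 9 gut genes 3 reached 1 RPKM, the highest being the trypsin gene betaTry at 2.66, 2.93 and 1.32 RPKM. alphaTry measured 2.83, 2.17 and 1.55 RPKM and Jon65Aiii 1.79, 2.10 and 1.22 RPKM, while mex1, zetaTry and deltaTry were under 0.1 RPKM. Of 5 tracheal genes 4 were expressed, with serp highest at 4.93, 3.57 and 4.23 RPKM. The chitin deacetylase gene verm measured 2.76, 2.37 and 2.70 RPKM and Gasp 1.69, 1.44 and 1.81 RPKM, and the tracheal selector gene trh stood at 0.388, 0.319 and 0.356 RPKM. Of 5 Malpighian tubule genes ClC-a, a chloride channel, measured 11.4, 10.9 and 12.5 RPKM and tsh 2.15, 2.22 and 2.12 RPKM, while Uro, Lkr and CapaR were under 0.1 RPKM. None of 13 male genes was expressed, the highest was lncRNA:roX1 at 0.414, 0.549 and 0.510 RPKM, and 8 of the 13 were listed at 0. These were SP and Acp26Aa, which encode seminal peptides, and kl-2, kl-3, kl-5, ORY, ARY and WDY of the Y chromosome. The sperm tail gene dj measured 0.0321, 0.104 and 0.0219 RPKM, and betaTub85D, lncRNA:roX2 and Acp36DE were under 0.1 RPKM in all 3 libraries. Of 5 glial genes 4 were expressed. Gs2, a glutamine synthetase gene, measured 107, 89.0 and 102 RPKM and the glutamate transporter gene Eaat1 75.6, 65.3 and 67.3 RPKM. The blood-brain barrier gene moody measured 13.5, 11.1 and 12.8 RPKM. Gs2 and Eaat1 act beyond glia, and the defining factor repo was at 0.427, 0.396 and 0.490 RPKM.

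**Figure D4:**
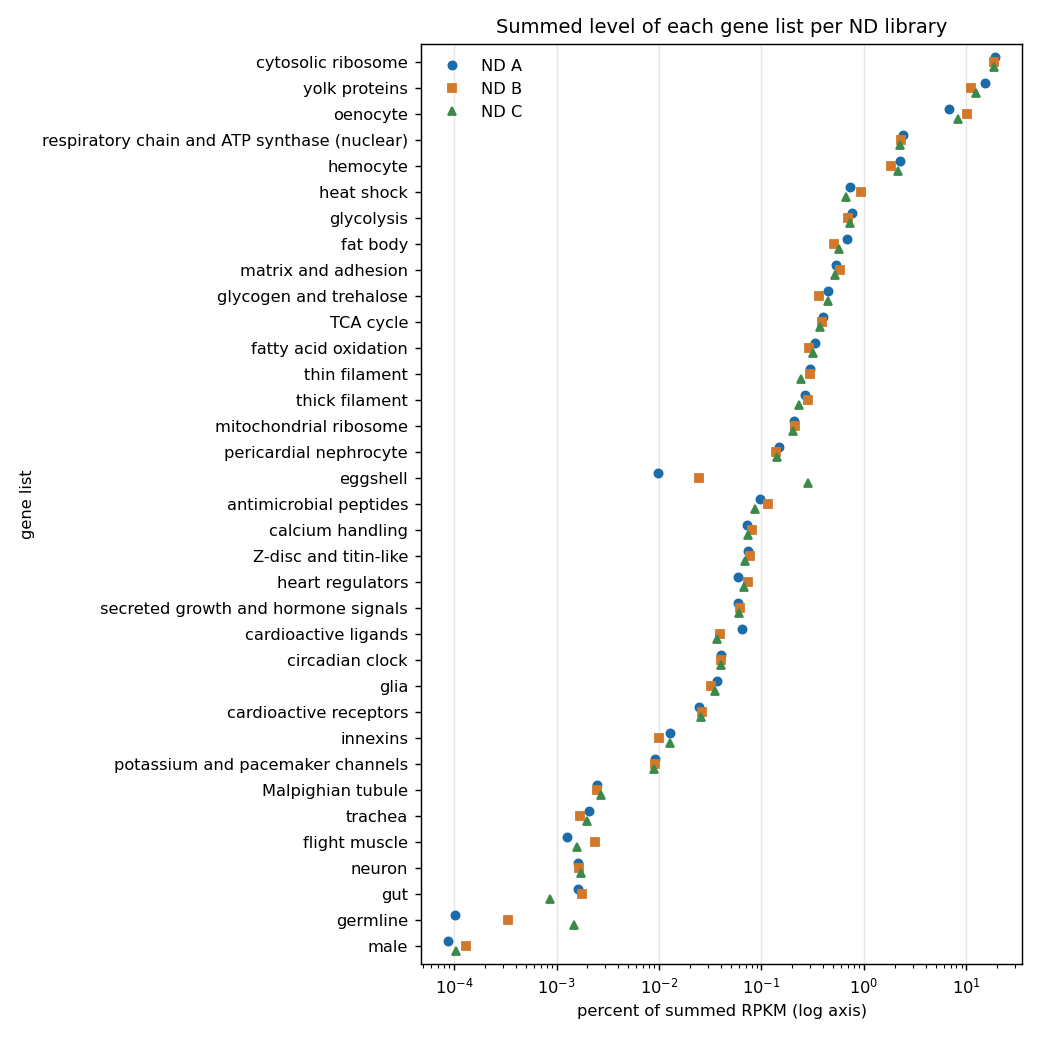
Percent of summed RPKM (log axis) held by each of 35 gene lists, with 1 symbol per ND library. The cytosolic ribosome holds 18.8%, yolk proteins 12.9% and oenocyte genes 8.30% on average, and the eggshell list shows the largest gap between ND C and the other libraries.

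Every gene of the main lists of energy metabolism was expressed. All 14 glycolytic genes, 15 genes of the TCA cycle and 11 genes of fatty acid oxidation passed 1 RPKM, with medians of 264, 132 and 167 RPKM. Gapdh2 measured 658, 627 and 652 RPKM and Gapdh1 644, 532 and 601 RPKM, the pyruvate kinase gene PyK 432, 399 and 417 RPKM and the malate dehydrogenase gene Mdh2 302, 258 and 266 RPKM. The citrate synthase gene kdn measured 235, 266 and 203 RPKM and Scsalpha1, a subunit of succinyl-CoA synthetase, 208, 193 and 210.5 RPKM. Unlike the genes before it, kdn was highest in ND B. The lactate dehydrogenase gene Ldh was the lowest of the glycolytic list at 45.6, 45.9 and 39.4 RPKM. For fatty acid oxidation Mcad measured 303, 259.6 and 278 RPKM, Acsl 258, 209.6 and 246 RPKM and whd, the carnitine palmitoyltransferase that admits fatty acids to the mitochondrion, 112, 94.4 and 104 RPKM. The thiolase gene yip2 measured 249.6, 193 and 240.1 RPKM. The exons of Mcad are overlapped over 92.6% of their length on the opposite strand.

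Trehalose, the main blood sugar of insects, is made by Tps1, which was high at 1244, 905 and 1190.4 RPKM. The trehalose transporter gene Tret1-1 measured 273, 246 and 292 RPKM. Treh, the enzyme that splits trehalose, measured 72.6, 76.2 and 68.6 RPKM. For glycogen, UGP, which makes the UDP-glucose it is built from, measured 473, 368 and 479 RPKM. The phosphorylase gene Glyp measured 179, 158 and 164 RPKM and the synthase gene Glys 81.1, 69.5 and 79.1 RPKM. Among hexokinases Hex-C, the fat body form, measured 125, 104 and 132 RPKM and Hex-A, the muscle form, 78.4, 94.5 and 79.5 RPKM, while the testis form Hex-t1 was at 0.120, 0.142 and 0.0702 RPKM. The other testis form, Hex-t2, was at 0.0494, 0.0723 and 0.0421 RPKM.

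Of 91 nuclear genes matched by the naming pattern of the respiratory chain and ATP synthase, 69 were expressed, with a median over the 91 of 92.6 RPKM. ATPsynbeta measured 729, 695 and 689 RPKM, ATPsynC 614, 568 and 583 RPKM and blw, the ATP synthase alpha subunit, 627, 544 and 568 RPKM. Among those not expressed, ND-51L1, ND-51L2, ND-49L, ATPsynbetaL, UQCR-14L and COX6AL were under 0.1 RPKM in all 3 libraries. ND-24L, ND-20L, ND-B14.5AL, COX6CL, COX5BL, COX6AL2, ATPsynGL, ATPsynCF6L, ND-MNLL and UQCR-14 were listed at 0. Exons of another gene cover ND-MNLL on the same strand and UQCR-14 and COX5BL on the opposite strand over their whole length, and COX6AL2 over 67.0% on the same strand. Likewise the somatic cytochrome c gene Cyt-c-p measured 329, 294 and 289 RPKM and Cyt-c-d 0.0309, 0.0753 and 0.0316 RPKM, and the ADP/ATP carrier sesB 586, 606 and 573 RPKM against 1.19, 0.878 and 1.38 RPKM for Ant2. Of the 69 expressed genes 56 were highest in ND A. Genes encoded in the mitochondrion were not analysed here.

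Ribosomal protein genes of the cytosol were expressed in 84 of 92 cases with a median of 1101 RPKM, and those of the mitochondrial ribosome in 72 of 73 cases with a median of 14.4 RPKM. The highest mitochondrial one, mRpS9, measured 47.0, 45.0 and 46.1 RPKM. Next were mRpL28 at 37.1, 37.6 and 37.4 RPKM and mRpS7 at 28.6, 29.3 and 28.6 RPKM, all steady between libraries. mRpL53, the exception, was listed at 0 and lies wholly within exons of another gene on the same strand. Cytosolic genes below 1 RPKM were RpS28a, RpS19b, RpS28-like, RpS10a, RpL7-like, RpL37-2, RpL22-like and RpL10Aa, which are duplicated forms. Of the exon length of RpL7-like, 98.8% is overlapped on the same strand, so its value of 0 does not show that it is silent. RpL38 was unusual within its list in differing between libraries, at 139, 339 and 292 RPKM. eEF1alpha1 held 99.7% ± 0.0483 of the level of its family, and the other member eEF1alpha2, known from neurons and muscle, measured 10.2, 12.2 and 9.09 RPKM.

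Immune and stress genes were expressed as well. Of 14 antimicrobial peptide genes 13 were expressed, AttC at 151, 135 and 156 RPKM, CecC at 96.2, 119 and 64.5 RPKM and Drs at 68.8, 67.0 and 64.7 RPKM. The 12 Bomanin genes, secreted effectors of the Toll pathway, were all expressed, with a median of 188 RPKM and BomS6 the highest at 1237, 1585 and 1717 RPKM. The peptidoglycan receptor gene PGRP-SD measured 92.5, 65.7 and 79.6 RPKM and PGRP-LC, the receptor of the Imd pathway, 33.5, 41.6 and 36.1 RPKM. Of the chaperones the constitutive Hsc70-4 measured 1409, 1396 and 1274 RPKM and Hsp83 1004, 1124 and 920.4 RPKM, in a narrow range. The inducible Hsp26 measured 589, 858 and 522 RPKM and Hsp68 481, 754 and 432 RPKM, both highest in ND B. Of 8 heat shock list genes whose mean reached 1 RPKM, 7 were highest in ND B. Hsp22, which lies inside exons of another gene on the same strand, was listed at 0. Hsp70Aa was also listed at 0, whereas Hsp70Ba measured 8.47, 35.1 and 17.8 RPKM. The Hsp70 genes are close copies, and the split of reads between them is uncertain. The peptide genes of the Turandot family were lowest in ND A and highest in ND C, TotA at 327, 996 and 1566 RPKM, TotC at 155, 508 and 904 RPKM and TotM at 124, 469 and 701 RPKM.

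Signals to and from the heart were listed as ligands and receptors. Of 12 ligands that act on the fly heart only Ms (myosuppressin), which inhibits heartbeat, was high, at 346, 209 and 196 RPKM. CCAP, a cardioacceleratory peptide, measured 3.42, 1.38 and 1.33 RPKM, and the other 10 ligands, among them Akh at 0.482, 0.612 and 0.691 RPKM, did not pass 1 RPKM in any library. AstC, Dh31, Proc, Crz and FMRFa were under 0.1 RPKM in all 3 libraries. Of 25 receptors 8 were expressed. CrzR, the corazonin receptor, measured 45.9, 60.5 and 55.9 RPKM, AkhR, the receptor of the lipid-mobilizing hormone Akh, 37.7, 30.0 and 36.8 RPKM, and the tachykinin receptor TkR99D 20.7, 17.6 and 15.9 RPKM. The proctolin receptor Proc-R measured 13.1, 15.3 and 13.1 RPKM and Dh31-R 5.86, 6.19 and 5.29 RPKM. The receptors of myosuppressin itself were low, MsR2 at 1.76, 1.73 and 1.80 RPKM and MsR1 at 0.452, 0.391 and 0.537 RPKM. CCAP-R measured 0.351, 0.676 and 0.403 RPKM. Dop1R1, TkR86C, CapaR, rk, Octbeta1R and 5-HT1A did not reach 0.1 RPKM in any library.

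Of 18 secreted growth and hormone signals 10 were expressed. ImpL2, which binds insulin-like peptides and restrains their signal, was highest at 117, 113 and 125 RPKM, although 61.9% of its exon length overlaps another gene on the same strand. CCHa2, a nutrient-dependent peptide, measured 67.2, 73.0 and 72.7 RPKM and egr, the fly TNF, 70.8, 74.4 and 62.8 RPKM. Ilp6, the insulin-like peptide of fat body, measured 17.7, 21.0 and 19.9 RPKM, while Ilp2, made by neurosecretory cells of the brain, measured 0.0772, 0.0565 and 0 RPKM. Ilp5 from the same cells measured 0.189, 0.185 and 0 RPKM. upd1 was under 0.1 RPKM in all 3 libraries, and upd3 measured 0.693, 0.710 and 0.911 RPKM. All 8 clock genes were expressed, with cry at 116, 114 and 109 RPKM, cwo at 22.5, 23.0 and 24.5 RPKM, tim at 23.5, 17.1 and 24.0 RPKM, Clk at 6.96, 8.16 and 6.49 RPKM and per at 2.39, 2.18 and 2.51 RPKM.

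Gene families chosen after the values had been seen gave a census of their RNA in the heart libraries. Of 82 cytochrome P450 genes 52 were expressed, and after Cyp4g1 the highest was Cyp6d5 at 403, 259.6 and 343 RPKM. Of 35 glutathione S-transferase genes 26 were expressed, led by GstD1 at 442, 392 and 389.6 RPKM. Of 51 odorant-binding protein genes 11 were expressed, led by Obp99c at 1629, 1121 and 1295 RPKM. By contrast 1 of 58 odorant receptor genes, 1 of 60 gustatory and 3 of 60 ionotropic receptor genes reached 1 RPKM in all libraries, the highest being Ir76a at 2.90, 3.17 and 3.38 RPKM. All 31 aminoacyl-tRNA synthetase genes were expressed, with a median of 9.07 RPKM. Of 48 proteasome genes 31 were expressed, led by Prosbeta7 at 238, 294 and 249 RPKM, and 30 of these 31 were highest in ND B. Of 33 vacuolar ATPase genes 20 were expressed, led by Vha16-1 at 274, 294 and 285 RPKM.

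Among long noncoding RNA genes lncRNA:CR34335 was highest at 594, 901 and 895 RPKM, a value that did not correspond to whole reads at the annotated length. It was followed by lncRNA:CR42862 at 326, 439 and 422 RPKM and lncRNA:CR43196 at 204, 308 and 247 RPKM. lncRNA:CR32368 measured 48.2, 114 and 67.2 RPKM and lncRNA:CR31781 60.0, 56.3 and 53.1 RPKM. Of the protein-coding genes with only a CG number, the 10 highest were CG2233, CG34166, CG30008, CG16904, CG4716, CG17560, CG6503, CG6770, CG15531 and CG7910, with means from 1163 to 5631 RPKM. CG30008 measured 1675, 2665 and 2244 RPKM and CG16904 1727, 2498 and 2200.0 RPKM, both lowest in ND A as the oenocyte genes were. CG4716 measured 2012, 1469 and 1848 RPKM and CG6503 1889, 1309 and 1501 RPKM, both lowest in ND B as the yolk protein genes were.

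The ND libraries resembled each other closely for most genes. After scaling by the median of ratios, the median over the 7675 genes whose mean reached 1 RPKM of the SD of log2(RPKM + 0.5) was 0.0972. Between pairs of libraries Pearson's r across these genes was 0.9864 to 0.9920, where genes are not independent replicates. No value of these genes was identical in a pair of libraries. A range of 2-fold or more was seen in 129 of the 7675 genes (1.68%), and 51 to 83 genes differed by that much in a pair of libraries. Among genes above 100 RPKM, the steadiest included eIF3k, RpL39, the cathepsin genes CtsB and CtsL1 and the histone variant gene His3.3B. RpL39 measured 2569.5, 2641 and 2704 RPKM and CtsL1 1298, 1333 and 1359 RPKM.

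**Figure D5:**
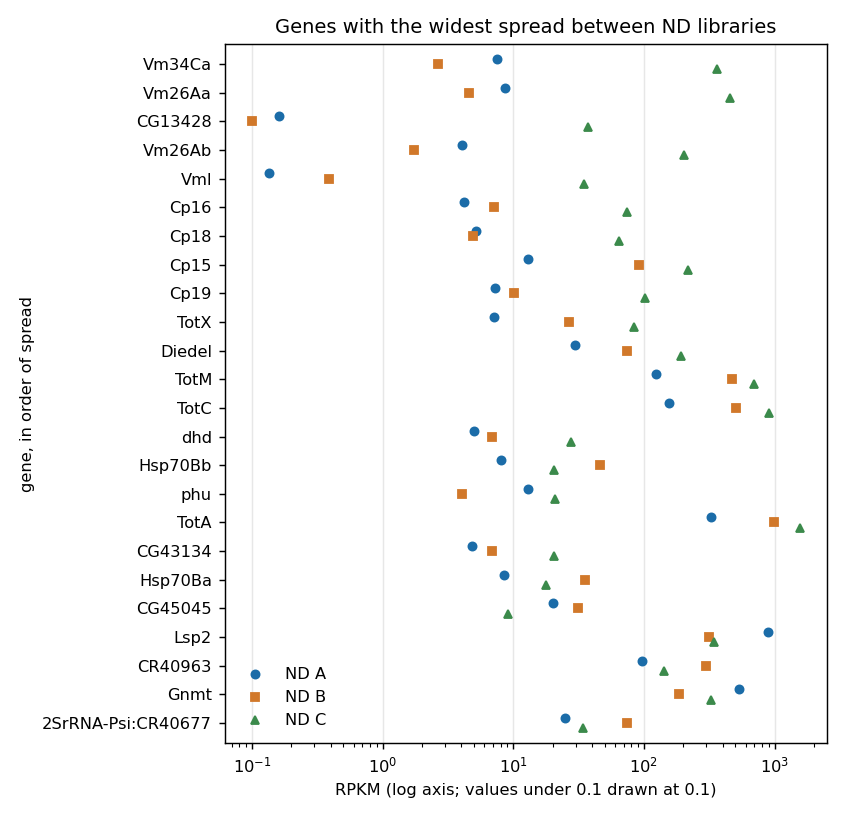
RPKM (log axis) of the 24 genes with the largest SD of log2 values over the ND libraries among genes whose mean reached 10 RPKM; values under 0.1 are drawn at 0.1. Eggshell genes head the order with ND C highest, and Hsp70 genes show ND B highest.

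The 10 genes with the widest spread, among those whose mean reached 10 RPKM, were Vm34Ca, Vm26Aa, CG13428, Vm26Ab, Vml, Cp16, Cp18, Cp15, Cp19 and TotX, and all 10 were highest in ND C. Their SD of log2 values ran from 1.70 to 3.60. Vm26Ab measured 4.03, 1.73 and 203 RPKM, Cp16 4.16, 7.17 and 74.3 RPKM and TotX 7.13, 26.9 and 83.6 RPKM. Of the 40 genes with the widest spread, 10 were highest in ND A, 11 in ND B and 19 in ND C. Those highest in ND A included Lsp2 and Gnmt, the glycine N-methyltransferase gene, at 538, 186 and 329 RPKM. Those highest in ND B included Hsp70Bb at 8.08, 46.2 and 20.5 RPKM, and CR40963 at 97.0, 300.3 and 142 RPKM.

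How the description carries over to the other diets was asked with limma on log2(scaled RPKM + 0.5) over all 9 libraries. Calls needed a fold change of at least 1.5 and an adjusted p (Benjamini-Hochberg, over the 8336 genes tested) below 0.05. On HSD 2.56% of the genes tested were called lower and 0.744% higher than on ND, and on HFD 1.45% lower and 0.468% higher. Both comparisons share the 3 ND libraries. Without scaling the median log2 difference of all genes tested was 0.04 on HSD and 0.12 on HFD, and the calls then split into 195 lower and 83 higher on HSD and 96 lower and 87 higher on HFD, against 213 and 62, and 121 and 39, with it. Of the 599 genes of the 35 lists, 484 entered the test. Called lower on HSD were 9 (1.86%), with 1 higher, and on HFD 8 were lower (1.65%) and 1 higher, shares near or under the background. The median log2 fold change of the listed genes was 0.00 on HSD and 0.03 on HFD, against 0.00 and 0.02 over all genes tested. Single lists lay further from 0 in either direction. On HSD and HFD the medians were -2.83 and -3.42 for eggshell and -0.83 and -1.65 for yolk proteins. They were 0.62 and 1.06 for antimicrobial peptides, of which none was called. No member of the sarcomere, calcium handling, channel, matrix, nephrocyte, hemocyte or heart regulator lists was called on either diet. The counts rest in part on single libraries, being 128 on HSD and 100 on HFD without ND A and 106 and 44 without ND C, against 275 and 160 with all libraries.

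Of the 25 genes highest on ND, 7 were called on HSD (5 lower, 2 higher) and 5 on HFD, each of them lower. They were chosen by their level in the ND libraries that enter the contrast, so that nothing was read from the count. Yp1, Yp2, Yp3, CG2233 and CG34166 were lower on both diets. Yp2 measured 15586, 18014 and 15128 RPKM on HSD (log2 fold change of -0.86 ± 0.18 (SE), limma adjusted p = 0.0297) and 7377, 6741 and 9885 RPKM on HFD (log2 fold change of -1.97 ± 0.18 (SE), limma adjusted p = 0.0018), with no overlap between diets. The calls of the 3 yolk protein genes were lost without a filter on low values and under quantile normalization. Under the latter, Yp1 and Yp3 on HFD changed direction to log2 fold changes of 0.12 and 0.16. That method gives every library the same values by rank. Mean RPKM on HFD was 8001 for Yp2, 8060 for Yp3 and 7297 for Yp1, still above Nplp2 at 5695. A fall shared by genes that keep such ranks is largely removed by the method, so it cannot decide these calls. On HSD the call of Yp3 held in 1 of 9 fits that each left out a library, and those of Yp1 and Yp2 in 5 of 9. The calls of these 3 genes on HSD were also lost with only the 6 libraries of both diets. That of CG2233 on HFD held in 2 of 9 such fits and was lost with RPKM as deposited, without a filter and under quantile normalization. CG34166 measured 958, 1019 and 1254 RPKM on HSD (log2 fold change of -1.43 ± 0.28 (SE), limma adjusted p = 0.0217) and 850.2, 566 and 476 RPKM on HFD (log2 fold change of -2.31 ± 0.28 (SE), limma adjusted p = 0.00491). Its call on HFD held in all 9 fits. Its call on HSD held in 6 and was lost without HSD B, ND A or ND C, and also without a filter on low values. CG30008 and CG16904 were higher on HSD, CG30008 at 3255, 3926 and 3907 RPKM and CG16904 at 3327, 3459 and 3693 RPKM, with calls that held in 1 and 4 of the 9 fits.

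Of the listed genes called, ImpL2 was higher on both diets. It measured 263, 286 and 262 RPKM on HSD (log2 fold change of 1.14 ± 0.14 (SE), limma adjusted p = 0.00409), a call that held in all 9 fits, and 264, 208 and 175 RPKM on HFD (log2 fold change of 0.73 ± 0.14 (SE), limma adjusted p = 0.0346), which held in 3. The call of ImpL2 on HFD was also lost without a filter on low values and with only the 6 libraries of both diets. CCHa2 was lower on both, at 37.1, 28.4 and 35.7 RPKM on HSD (log2 fold change of -1.11 ± 0.19 (SE), limma adjusted p = 0.0153) and 21.4, 32.1 and 40.0 RPKM on HFD (log2 fold change of -1.33 ± 0.19 (SE), limma adjusted p = 0.0121), calls lost on both diets without ND C and on HSD also without ND A or HSD B. On HSD the level of bmm was lower, at 75.4, 68.9 and 58.8 RPKM (log2 fold change of -0.73 ± 0.10 (SE), limma adjusted p = 0.00599) and held in all 9 fits. Lsp2 fell to 9.58, 21.8 and 124 RPKM on HSD (log2 fold change of -3.96 ± 0.89 (SE), limma adjusted p = 0.0347) and 3.96, 8.62 and 21.5 RPKM on HFD (log2 fold change of -5.69 ± 0.89 (SE), limma adjusted p = 0.0161), with calls that held in 3 and 5 of 9 fits. Both calls were lost without ND A and without ND C, and the call on HSD also without ND B. The call on HSD was further lost in limma-voom on rebuilt reads, without a filter on low values and with only the 6 libraries of both diets. Hex-C was lower on HSD at 81.0, 51.8 and 45.6 RPKM and Glys at 58.5, 44.1 and 47.8 RPKM, and tobi, a fat body glucosidase gene, at 149, 122 and 165 RPKM, with calls that held in 3, 5 and 3 of the 9 fits. The call of tobi was also lost with the library letter as a replicate block and without a filter on low values. That of Hex-C was lost without the filter as well. On HFD Inx3 was lower at 20.7, 17.8 and 22.7 RPKM (log2 fold change of -0.85 ± 0.13 (SE), limma adjusted p = 0.0136) and FarO at 104, 107 and 107 RPKM, both lost without ND C or HFD B and FarO also without HFD A. Cp15 was lower on HFD at 1.52, 0.0302 and 0.432 RPKM (log2 fold change of -6.10 ± 1.09 (SE), limma adjusted p = 0.0251), a call that held in 4 of 9 fits. It was lost without ND B, ND C or any 1 of the 3 HFD libraries, in limma-voom on rebuilt reads and without a filter on low values.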

How the data were processed

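RNA from pooled female hearts was depleted of rRNA, prepared with a stranded total RNA kit and sequenced in pairs. The authors aligned the reads to dm3, counted them per gene with featureCounts 1.6.1 and updated identifiers to dm6. The authors' tests used DESeq2 1.20.0 and edgeR 3.22.5, which were not used here. The deposited values are other than counts: 1 RPKM table, with a decimal comma in 28.4% of cells, read as a point. In 9 stretches labels and values are out of register by up to 5 rows. They were realigned with given offsets: values in these stretches gave whole reads in 95.5% of rows after realigning and 14.9% before (tolerance 0.02 reads). No per-sample column was left unmapped, that is 0 columns. After realigning, 14 identifiers kept 2 rows of values each and were not settled.

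Means and SDs were taken over the 3 libraries of the diet on deposited RPKM. Diets were compared with limma 3.58.1 in R 4.3.3 on log2(RPKM + 0.5) after median-of-ratios scaling, for genes whose mean reached 0.5 RPKM, without covariates. Per the study's methods the 3 samples of a diet were independent and collected on different days. Those methods also give a tube of females on each of ND, HSD and HFD per date. Whether a library letter marks a day is not given in the sources used here, so the letters were not used as a block in the main comparison. Descriptions used Python 3.11.15.

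Named were the 25 highest genes (1 is not reported here), all paralogs, in each list the 3 highest members and those under 0.1 RPKM in all ND libraries, the 10 of widest spread, the 5 highest lncRNA genes, the 10 highest CG-numbered genes, and called genes among the highest and the listed. Further list members, the 16 gene families and their leading genes were chosen after their values had been seen. Members and lists were chosen with earlier results of these data known. Alternatives covered thresholds, scaling, pseudocount, filters, labels as listed, reads, a replicate block and leaving out each library.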

Additional observations from a re-analysis of the deposited data

How the results depend on the processing

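The number of expressed genes stayed within 6789 to 8051 under the thresholds, the TPM scale and the libraries left out that were tried. The share of the 100 highest genes was 38.6% when counted as reads, which by construction gives long genes more weight, and 49.0 to 49.6% when a library was left out. The median spread was 0.0972, and 0.0702 to 0.0884 when a library was left out. Without a filter on low values 81 genes were called on HFD against 160, where more genes were tested, and 191 on HSD against 275. Leaving out a library gave 106 to 296 calls on HSD and 44 to 167 on HFD. Counts under scaling, pseudocount, a 2 RPKM filter, limma-voom and the 6 libraries of the diets compared were within 1.5 times. With the library letter as a replicate block, 283 genes were called on HSD and 161 on HFD. Deviations of same-letter libraries correlated at -0.0706 to 0.249 for HSD and 0.0257 to 0.266 for HFD. Some ND libraries correlated best with their own letter and others did not, which cannot decide whether letters mark days. No source ties the letters to a day. Among named genes, TPM moved 247 of 281 levels by more than their SD. TPM was 1.83 to 1.88 times RPKM, so this was a change of unit and was not read as a check on levels. Leaving out a library cannot move a mean of 3 beyond its SD, so these fits were not read as a check on levels. The mean of Vm26Aa was 156 RPKM with all libraries and 6.62 RPKM without ND C. With labels as listed, the share of 1 of 35 lists, the clock genes, moved by more than its SD.

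Precision is limited by 3 pools on 1 diet, by exon lengths and by overlapping genes. Of genes with a value above 0, 95.35% gave whole reads at the annotated length. Mhc, up, Tm1, Mlp84B, ATPsynC, RpL23A, tim, Vml and lncRNA:CR34335 were among those that did not, so the length behind their levels is uncertain. Of 293 protein-coding genes whose exons lie wholly within another gene on the same strand, 269 (91.8%) were listed at 0 in all ND libraries, against 14.2% of 12806 genes without such overlap, so a 0 for such a gene does not show that it is silent. Whether strand was used in counting is not given in the sources used here.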

Other observations

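Some further values lay outside the comparisons. CR40963, which is not in the annotation used, and the rRNA pseudogene 2SrRNA-Psi:CR40677 were highest in ND B, at 97.0, 300.3 and 142 RPKM and 24.9, 73.9 and 34.2 RPKM, while no annotated rRNA gene reached 1 RPKM. Of 34 tetraspanin genes 22 were expressed, led by Tsp42Ee with a mean of 108 RPKM. Of 31 Rab GTPase genes 21 were expressed, led by Rab7 with a mean of 171 RPKM. Of 70 cuticle protein genes with a chitin-binding domain 10 were expressed, led by Cpr49Ab with a mean of 36.9 RPKM. Of 35 UDP-glycosyltransferase genes 15 were expressed, led by Ugt36D1 with a mean of 77.3 RPKM. Diedel, a secreted immune modulator gene, measured 29.9, 73.9 and 193 RPKM, in the same order of libraries as the Turandot genes. phu measured 13.1, 4.02 and 20.8 RPKM.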
